A study of Mus musculus with 6 samples.

Results

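WNT proteins are secreted, lipid-modified ligands that cells use to signal to their neighbours, and the genes described here encode these ligands together with the proteins that receive or amplify them at the cell surface. The set was defined by gene family and not by any measured value. It comprised 41 mouse genes of the 55450 genes listed in the deposited files: 19 WNT ligands, 10 Frizzled receptors, the LRP co-receptors Lrp5 and Lrp6, the ROR and RYK receptors Ror1, Ror2 and Ryk, the LGR receptors Lgr4, Lgr5 and Lgr6, and the 4 R-spondins. Their RNA was measured by single-cell RNA sequencing of the femoral fracture callus, the repair tissue that bridges a broken bone, at 14 days post fracture.

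The 6 libraries were made from 3 control samples and 3 samples labelled as a knockout. The controls carry the genotype label wt and are described by the study as Piezo1 f/f mice, that is, mice with loxP sites in both copies of Piezo1, a mechanically gated ion channel. The other libraries are labelled Col2CreERT; Piezo3-/-, whereas the study describes Piezo1 f/f mice that also carry Col2CreERT, a tamoxifen-activated Cre recombinase under the Col2a1 promoter, so recombination is limited to cells that use this cartilage promoter while tamoxifen is present. Mice of both groups were operated on at 12 weeks of age, and tamoxifen (75 mg/kg) was injected daily for 5 days, starting 5 days after the operation, in both. The study gives differing numbers of mice for this experiment. The labels do not say whether a library came from 1 mouse or from pooled mice, and p-values measure only the spread between these libraries.

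The libraries held 57626530 to 103784364 unique molecular identifiers (UMIs, 1 for each captured RNA molecule), and 41863 of 46944 cell barcodes were kept after filters on depth, mitochondrial RNA and doublets. Any pair of libraries shared 4 to 35 barcodes, at most 0.385% of the smaller library. Levels are given in CPM, the UMIs of a gene per 1000000 UMIs of the cells summed. Piezo1 in the chondrocyte-like classes measured 70.1, 44.2 and 53.4 CPM in control libraries 1, 2 and 3, and 141, 53.1 and 46.5 in knockout-labelled libraries 1, 2 and 3. The 3′ tags counted here need not lie in the deleted part of the gene, so they do not check the labels, and the second group is called the knockout-labelled libraries throughout. Knockout-labelled library 3 carried female RNA, with Xist at 579 CPM against at most 0.17 in the other 5 libraries and with Ddx3y and Eif2s3y at 0, whereas the study describes male mice only, so this library goes against the description and counts were repeated without it. None of the 41 genes is X-linked. Knockout-labelled library 1 contributed the fewest cells, 3109 of the 41863.

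The cells were clustered without the 41 genes and without the pathway genes described further on, and 21 cell classes were named from marker genes, each called "-like" because the names were rebuilt here. All 14 chondrocyte markers were highest in the chondrocyte-like class, and the same held for 10 of 10 endothelial, 7 of 7 tendon, 6 of 6 marrow stromal and 9 of 10 osteoblast markers. Support was weaker for hypertrophic chondrocyte (4 of 8), inflammatory fibroblast (4 of 8), progenitor fibroblast (4 of 7), cycling (4 of 7) and monocyte (3 of 7) markers. The osteoprogenitor-like class rested on less. Of its 7 markers only Wif1 was highest there, Kcnk2, Gdpd2 and Limch1 were higher in marrow stromal-like cells, and the protease gene Mmp9 led its cluster. The periosteal-like class was highest for 2 of 8 markers, and Saa3, a marker of inflammatory fibroblasts, was high in only 2 of the 6 libraries. CPM were computed per class and library, with libraries under 20 cells of the class left out. Values are listed in the order of replicates 1, 2 and 3, and a mean ± SD over libraries pools both labels unless a label is named. Because 3′ UMI counts are not scaled by length and capture differs between genes, levels of different genes are set side by side only as shares of UMIs.

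A WNT ligand binds a Frizzled receptor and LRP5 or LRP6 on the receiving cell, which stabilises beta-catenin and switches on target genes. Ligands such as WNT5A and WNT11 also act through ROR1, ROR2 or RYK without beta-catenin, on cell shape and polarity. R-spondins bind LGR4, LGR5 or LGR6 and keep Frizzleds on the cell surface, which strengthens a WNT signal without replacing it. In bone, WNT signalling is known for driving osteoblast formation, and FZD4 with LRP5 is known for its role in blood vessels of the eye.

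Promoter sequences are shown for Wnt4, Fzd4 and Ryk, the leading ligand of osteoprogenitor-like cells, the leading Frizzled of endothelial-like cells and the leading ROR or RYK receptor of nearly every class. They were taken from RefSeq promoter windows on GRCm38.p6 and stop short of both the RefSeq and the GENCODE gene start. Capitals mark the GC box (GGGCGG) and the CCAAT box (CCAAT) on either strand, where neighbouring GC boxes can overlap. Wnt4 is on chromosome 4 at 137277489 to 137299726 on the plus strand, Fzd4 on chromosome 7 at 89404355 to 89413134 on the plus strand and Ryk on chromosome 9 at 102834917 to 102908305 on the plus strand. The windows are Wnt4 chr4:137277385-137277488, Fzd4 chr7:89404116-89404354 and Ryk chr9:102834670-102834916.
Wnt4: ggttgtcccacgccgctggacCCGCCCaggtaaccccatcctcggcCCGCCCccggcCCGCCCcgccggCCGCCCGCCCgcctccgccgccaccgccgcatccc
Fzd4: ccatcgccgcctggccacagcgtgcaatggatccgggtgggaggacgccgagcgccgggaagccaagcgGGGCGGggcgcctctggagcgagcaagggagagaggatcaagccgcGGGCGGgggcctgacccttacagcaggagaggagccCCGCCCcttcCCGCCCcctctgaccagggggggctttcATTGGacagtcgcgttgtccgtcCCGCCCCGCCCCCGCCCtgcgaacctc
Ryk: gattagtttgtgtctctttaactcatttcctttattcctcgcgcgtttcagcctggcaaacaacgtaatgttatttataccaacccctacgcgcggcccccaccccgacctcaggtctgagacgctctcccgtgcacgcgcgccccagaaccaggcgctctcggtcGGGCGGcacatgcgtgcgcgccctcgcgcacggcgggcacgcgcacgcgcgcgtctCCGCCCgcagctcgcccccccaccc

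The printed stretch of Wnt4 held 5 GC boxes in 104 bases and was 83.7% G or C, that of Fzd4 held 7 GC boxes and 1 CCAAT box in 239 bases at 72.8%, and that of Ryk held 2 GC boxes in 247 bases at 65.2%. RefSeq windows matched 28 of the 41 genes by symbol. In the 250 bases before the RefSeq start these 28 had a median GC content of 71.2%, against 52.0% over 27025 genes with a window. A GC box was present in 22 of the 28 (78.6%) and in 32.9% of all windows, whereas CCAAT was present in 10 (35.7%) against 34.5% of all. The TCF/LEF letters CTTTGAT were found in 1 of the 28, Wnt11 (3.57% against 3.23%), and TGTGGT, a form of the RUNX motif, in 1, Ror1 (3.57% against 14.2%). These matches describe letters in a window and not occupied sites.

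Of the 41 genes, 34 were found in at least 1 class, with at least 10 UMIs there and a UMI in at least 3 libraries. The 7 that were found in no class were Wnt3, Wnt3a, Wnt7a, Wnt8a, Wnt8b, Wnt10a and Rspo4, and Wnt3a had 0 UMIs in all kept cells. A mean of 20 CPM in some class was reached by 24 genes: 7 of 19 WNT ligands, 2 of 4 R-spondins, 2 of 3 LGR receptors, 8 of 10 Frizzleds, both LRP co-receptors and all 3 ROR and RYK receptors. In every library of its highest class each of the 24 exceeded its level in neutrophil-like cells of the same library, which should lack most of these genes and so show free RNA. The class was picked as the highest one, so this order follows largely from that choice. The remaining 10 were found but peaked at only 0.851 to 17.9 CPM. These were Fzd3, Fzd10, Lgr5, Rspo1, Wnt1, Wnt2, Wnt2b, Wnt6, Wnt9b and Wnt10b. Of the 24, 6 were highest in marrow stromal-like cells, 4 each in progenitor fibroblast-like and hypertrophic chondrocyte-like cells, 3 each in endothelial-like and tendon-like cells, 2 in chondrocyte-like cells, and 1 each in osteoprogenitor-like and inflammatory fibroblast-like cells. The marrow stromal-like class had 61 cells in all and only 2 libraries over the minimum, controls 2 and 3, so its 6 values have the weakest base. The order of classes is a description without a test, because the classes were made from the same cells.

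**Figure D1:**
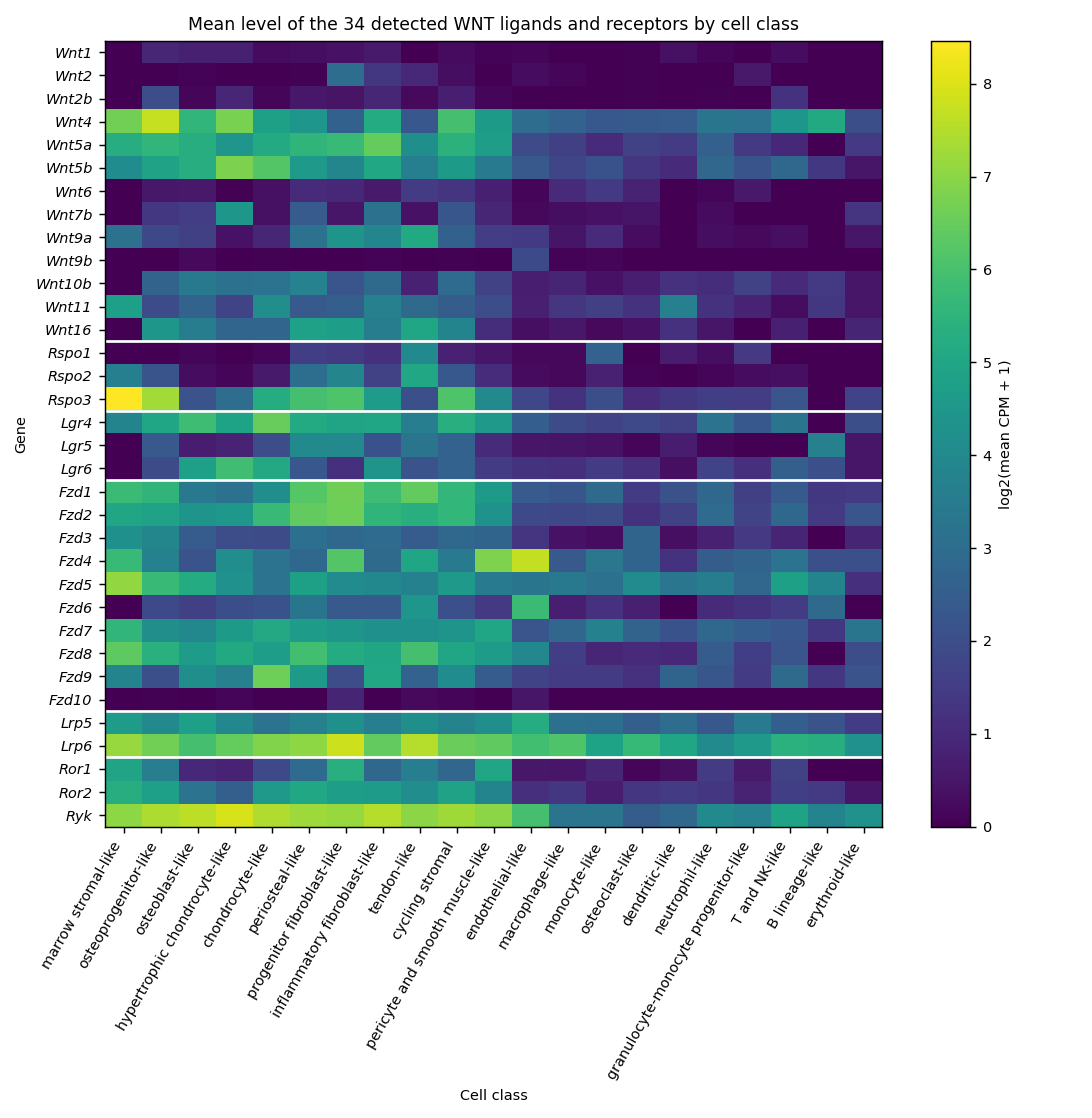
Each row is 1 of the 34 detected genes, grouped by family from WNT ligands at the top to ROR and RYK receptors at the bottom, each column is a cell class, and colour is log2 of the mean CPM plus 1. Ligands were bright in few columns, such as Wnt4 in osteoprogenitor-like cells (mean 209 CPM), whereas Ryk and Lrp6 were bright across the stromal columns on the left.

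Osteoprogenitor-like cells had the highest summed level of WNT ligands, 322 ± 63.5 CPM (SD, n = 6), and Wnt4 made up 64.9% of it. Wnt4, a ligand known from kidney and reproductive tract development, measured 142, 173 and 148 CPM in the control libraries and 266, 301 and 226 in the knockout-labelled ones (209 ± 65.4, n = 6). The next class, hypertrophic chondrocyte-like cells, measured 147 in control library 1 and 97.2, 82.7 and 98.6 in the knockout-labelled libraries (106 ± 27.8, n = 4), and the order of the pair held in 3 of 4 libraries. Every osteoprogenitor-like value lay far above free RNA: 48.9% of these cells had a Wnt4 UMI at a median depth of 6693 UMIs, against 1.97% of neutrophil-like cells at 2329. After each cell was thinned to 500 UMIs the shares were 8.37% and 0.281%.

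Osteoprogenitor-like cells also led every class with 6 libraries in Rspo3, an R-spondin known from blood vessel and bone development. Rspo3 measured 202, 167 and 166 CPM in the control and 111, 156 and 135 in the knockout-labelled osteoprogenitor-like cells (156 ± 31.2, n = 6) and made up 97.7% of their R-spondin RNA. Marrow stromal-like cells measured more, 434 and 270 in control libraries 2 and 3 (352 ± 116, n = 2), from 94 UMIs. Wnt4 and Rspo3 were seen in the same osteoprogenitor-like cell in 30%, 21.8% and 16.02% of control cells and 10%, 27.4% and 25.5% of knockout-labelled cells. The product of the single shares was 24.9%, 16.7% and 13.02%, then 12%, 24.3% and 18.02%, so joint detection lay slightly above the product in 5 of 6 libraries. The cells were not matched for depth, and the part of depth in this was not tested. Within the periosteal-like class Rspo3 averaged 89.4 CPM in the cluster led by Megf6 and Penk and 14.1 in the one led by Slc40a1. In the first of these clusters it varied over libraries, with 49.1, 22.4 and 77.1 in the controls and 36.9, 194 and 157 in the knockout-labelled libraries.

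Hypertrophic chondrocyte-like cells came second in summed WNT ligands, at 275 ± 50.8 CPM (n = 4), shared between Wnt5b (39.8%) and Wnt4 (38.6%). Wnt5b, a ligand known from cartilage, measured 157 in control library 1 and 120, 55.2 and 106 in the knockout-labelled libraries (110 ± 42.1, n = 4). Chondrocyte-like cells followed with 99.4, 45.4 and 34.2 in the controls and 104 and 76.6 in knockout-labelled libraries 1 and 3 (72.0 ± 31.5, n = 5), lower in the 3 libraries that had both classes. Knockout-labelled library 2 had 8 chondrocyte-like cells and gave no value. Among chondrocyte-like clusters Wnt5b averaged 111 in the cluster led by Epyc, 41.3 in the one led by Chrdl2 and 25.2 in the one led by Ucma. Wnt5b was also higher in the osteoblast-like cluster led by Ptprz1 and the osteocyte gene Dmp1, at 68.4, than in the one led by Bglap, at 25.02.

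Wnt7b, a ligand known for promoting bone formation, reached the 20 CPM line through 1 library. In hypertrophic chondrocyte-like cells it measured 0.884 in control library 1, 2.89 and 1.25 in knockout-labelled libraries 1 and 3, and 80.0 in knockout-labelled library 2, which had 23 such cells. In inflammatory fibroblast-like cells it was again highest in that library, at 35.7. Its mean of 21.2 ± 39.2 (n = 4) therefore describes no typical library.

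Wnt5a, the best known ligand of the beta-catenin independent branch, was spread over stromal classes and split the libraries of the highest one. In inflammatory fibroblast-like cells it measured 38.7, 41.3 and 186 CPM in the controls and 186, 40.1 and 28.6 in the knockout-labelled libraries (86.7 ± 76.9, n = 6). Control library 3 and knockout-labelled library 1 thus stood far above the other 4. The class name fits these 2 libraries best. The 8 inflammatory fibroblast markers summed to 116, 965 and 20995 CPM in the controls, then 11710, 69.4 and 197. The 14 chondrocyte markers of the same cells summed to 36779, 47290 and 4098, then 15582, 4692 and 38589, and their part in the Wnt5a level was not tested. Most of the Wnt5a came from the cluster led by Olfr810 and Cxcl5, where it measured 49.5, 59.9 and 229, then 225, 62.8 and 38.5. Saa3, an acute-phase gene, was high in the same 2 libraries of that cluster, at 17010 and 8714 against 1.36 to 34.6 elsewhere, and its part in the Wnt5a level was not tested. Progenitor fibroblast-like cells measured 55.4, 24.4 and 101, then 58.9, 31.8 and 39.0 (51.8 ± 27.5), a range that overlaps the inflammatory one.

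**Figure D2:**
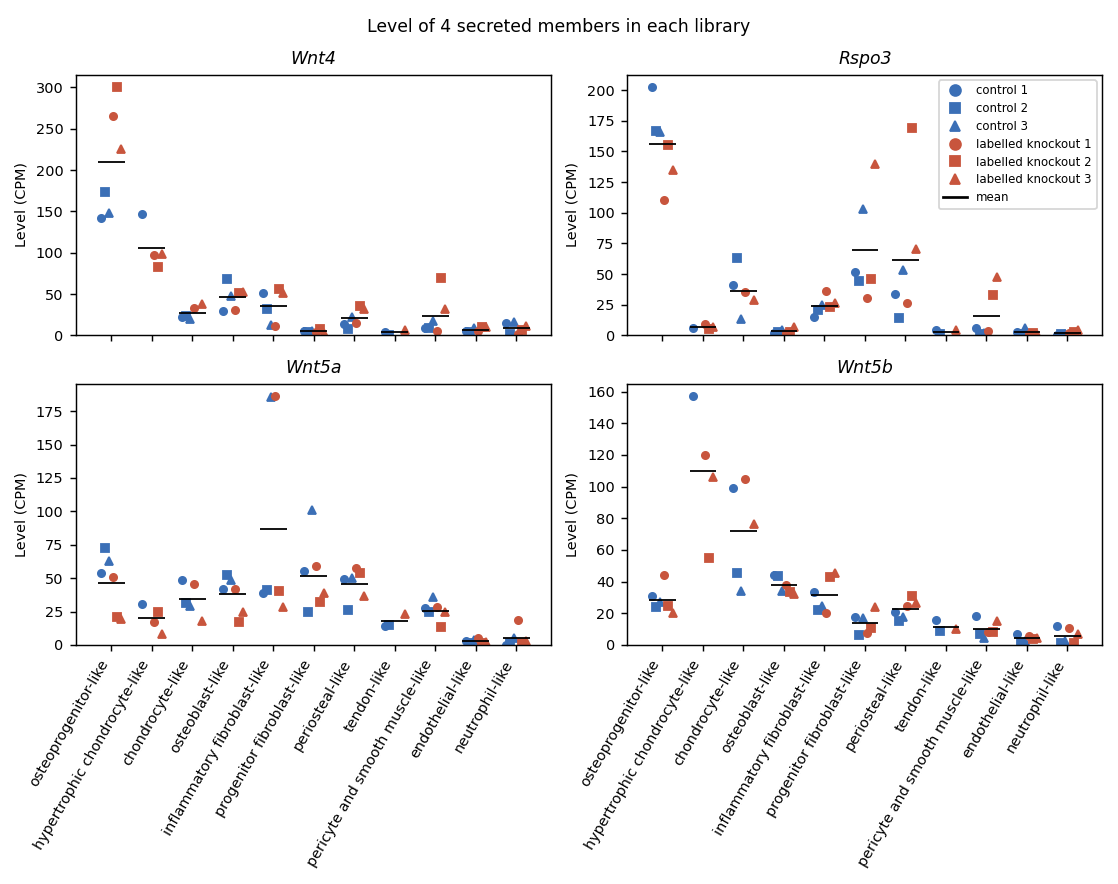
Each panel shows 1 secreted gene, with CPM on the vertical axis and 11 cell classes on the horizontal one, and each point is a library (blue control, red labelled knockout, shape for the replicate) with the mean as a bar. Of the classes drawn, which leave out marrow stromal-like cells, Wnt4 and Rspo3 stood highest in osteoprogenitor-like cells, Wnt5b in hypertrophic chondrocyte-like cells, and Wnt5a reached 186 in only 2 libraries of the inflammatory fibroblast-like class.

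Wnt9a (31.5%) and Wnt16 (28.1%) led the WNT ligand RNA of tendon-like cells. Neither was particular to them. Wnt16 was the second ligand of periosteal-like (18.7%) and progenitor fibroblast-like cells (19.1%). Wnt9a averaged 19.7 CPM in progenitor fibroblast-like cells, and tendon-like cells were higher in 2 of 3 libraries. In tendon-like cells Wnt9a, known from joint formation, measured 70.7 and 18.2 in control libraries 1 and 2 and 13.8 in knockout-labelled library 3 (34.3 ± 31.7, n = 3), so its mean rests on control library 1. Wnt16, known for protecting cortical bone, measured 37.1, 37.97 and 16.6 there (30.5 ± 12.1, n = 3). Its level in periosteal-like cells was 26.6, 20.4 and 34.02 in the controls and 18.2, 18.2 and 48.2 in the knockout-labelled libraries (27.6 ± 11.8, n = 6), within the spread of tendon-like cells. The 2 periosteal-like clusters differed in Wnt16 as they did in Rspo3, at 43.2 where Megf6 and Penk led and 10.9 where Slc40a1 led. Rspo2 was the leading R-spondin of tendon-like cells (62.0%), with 68.8, 11.3 and 17.3 (32.5 ± 31.6), followed by Rspo1 (28.7%) with 4.88, 29.1 and 11.1 (15.01 ± 12.6). Each of the 2 was high in a different control library.

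Wnt11, a ligand of the polarity branch, measured 32.4 and 19.96 in marrow stromal-like cells of controls 2 and 3, from 7 UMIs. Its level in chondrocyte-like cells rested on more libraries, at 16.4, 17.4 and 13.7 in the controls and 19.2 and 18.5 in the knockout-labelled libraries (17.0 ± 2.16, n = 5). Among ligands under 20 CPM, Wnt10b reached 12.3 ± 4.72 in periosteal-like cells, Wnt2 reached 7.08 ± 6.56 in progenitor fibroblast-like cells and Wnt2b reached 2.98 ± 1.76 in osteoprogenitor-like cells (n = 6 each).

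Wnt9b was rare, with 161 UMIs over all barcodes and 150 in named classes, of which 142 lay in endothelial-like cells. That class measured 2.71 ± 1.55 CPM (n = 6) and was above the next in 6 of 6 libraries. Within it the cluster led by Ackr1 and Selp, genes of venules, measured 6.07, 15.96 and 23.8 in the controls and 17.4, 5.41 and 6.26 in the knockout-labelled libraries (12.5 ± 7.66). The largest endothelial-like cluster, led by Gpihbp1 and Aplnr, measured 1.42 ± 0.612, below the venule-gene cluster in every library. No Wnt9b UMI was seen in the cluster led by Gja5, a gene of arteries, or in the one led by Ccl21a and Lyve1, genes of lymphatic vessels. Wnt9b lies 24.3 kb from Wnt3 on chromosome 11, and Wnt3 had 8 UMIs in named classes, where the counts that follow were also taken. Of the other close pairs, Wnt9a (1709 UMIs) lies 16.2 kb from Wnt3a (0), Wnt10b (1825) lies 11.7 kb from Wnt1 (88) on chromosome 15, and Wnt6 (259) lies 6.2 kb from Wnt10a (33) on chromosome 1, so each close pair had 1 gene with few or no UMIs.

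The LGR receptors that bind R-spondins were split between the cartilage classes. Lgr4 measured 78.2, 81.1 and 135 CPM in control and 94.7 and 54.4 in knockout-labelled chondrocyte-like cells (88.6 ± 29.6, n = 5), where it made up 71.1% of LGR RNA, and 56.3 in osteoblast-like cells. In hypertrophic chondrocyte-like cells Lgr6 made up 66.1%, with 65.0 in control library 1 and 41.9, 93.8 and 30.5 in the knockout-labelled libraries (57.8 ± 27.9, n = 4), against 33.1 ± 12.7 in chondrocyte-like cells. The pair of classes kept that order for Lgr6 in 2 of 3 libraries. Lgr6 averaged 42.7 in the osteoblast-like cluster led by Ptprz1 and Dmp1 and 12.1 in the one led by Bglap. By cluster, Lgr4 was highest of the chondrocyte-like clusters where Chrdl2 led (112), while Lgr6 was highest where Epyc led (49.1), the cluster that also carried the most Wnt5b. Lgr5, a stem cell marker of the gut, stayed under 20, at 15.7 ± 8.001 in periosteal-like and 14.8 ± 8.08 in progenitor fibroblast-like cells (n = 6).

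Frizzleds differed between classes in their sum and in which member led. The sum was lowest in blood-derived classes, from 25.9 CPM in dendritic-like to 62.5 in T and NK-like cells, and was 132 ± 34.2 in osteoblast-like cells (n = 6) and 140 ± 25.2 in hypertrophic chondrocyte-like cells (n = 4). It was 355 ± 59.7 CPM in progenitor fibroblast-like cells, 317 ± 41.6 in periosteal-like cells, 295 ± 62.9 in endothelial-like cells and 215 ± 73.2 in osteoprogenitor-like cells (n = 6 each), and 246 ± 64.3 in chondrocyte-like cells (n = 5). The highest, 431 ± 58.9, was in the 2 libraries of marrow stromal-like cells. Fzd4 made up 69.1% of the sum in endothelial-like cells and 48.0% in pericyte and smooth muscle-like cells, Fzd9 made up 38.5% in chondrocyte-like cells, and Fzd5 made up 24.3% in osteoprogenitor-like and 31.6% in marrow stromal-like cells. In progenitor fibroblast-like cells Fzd1 (27.8%) and Fzd2 (27.1%) were level.

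**Figure D3:**
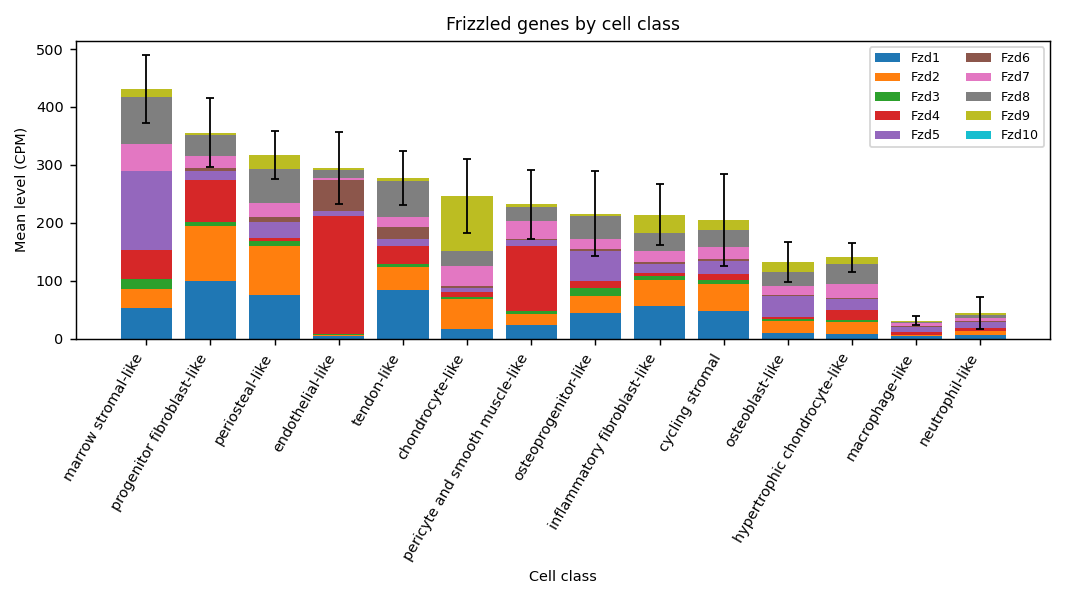
Stacked bars give the mean CPM of Fzd1 to Fzd10 in 14 cell classes, and the error bar is the SD of the Frizzled sum over libraries. Fzd4 fills most of the endothelial-like bar (69.1%), Fzd9 is the widest band of the chondrocyte-like bar (38.5%), and fibroblast classes are mixtures led by Fzd1 and Fzd2.

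Fzd1 in progenitor fibroblast-like cells measured 90.5, 141 and 119 CPM in the controls and 118, 62.3 and 61.2 in the knockout-labelled libraries (98.8 ± 32.96, n = 6). Fzd2 there measured 125, 90.3 and 120, then 75.8, 98.1 and 69.6 (96.4 ± 22.5), against 85.8 ± 14.8 in periosteal-like cells. The order of these classes for Fzd2 held in 4 of 6 libraries, so they did not separate beyond their spread.

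Fzd4, the receptor of WNT and Norrin signals in vessels, measured 252, 200 and 196 in control and 239, 210 and 124 in knockout-labelled endothelial-like cells (204 ± 44.8, n = 6). Pericyte and smooth muscle-like cells came next at 111 ± 34.2 and were lower in 6 of 6 libraries. A Fzd4 UMI was seen in 64.2% of endothelial-like cells (median depth 6952.5 UMIs) and 1.15% of neutrophil-like cells, or 9.04% and 0.195% at 500 UMIs per cell. Fzd6, a Frizzled known from planar polarity, was second in endothelial-like cells, with 68.5, 49.7 and 67.2 in the controls and 59.0, 40.0 and 33.3 in the knockout-labelled libraries (52.9 ± 14.5).

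The endothelial-like clusters differed in both receptors. Fzd6 in the artery-gene cluster led by Gja5 measured 111, 88.8 and 142 in the controls and 115, 94.4 and 84.0 in the knockout-labelled libraries (106 ± 21.5), above the 43.5 ± 12.2 of the Gpihbp1 and Aplnr cluster in each library. Fzd4 was similar in both clusters, at 229 and 222, and lower in the lymphatic-gene cluster, at 88.1, 55.9 and 56.6 in the 3 libraries that had it. That cluster carried as much Fzd6 (78.0) as Fzd4 (66.8) and was the endothelial-like cluster with Rspo3, at 18.1, 87.8 and 14.1 (40.0 ± 41.4) against 0.654 in the Gpihbp1 and Aplnr cluster. Lrp5, the co-receptor, was highest in the venule-gene cluster, at 57.4 ± 13.8 against 36.5 in the Gpihbp1 and Aplnr cluster. The venule-gene cluster thus combined the most Lrp5 and the most Wnt9b, and the artery-gene cluster the most Fzd6.

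**Figure D4:**
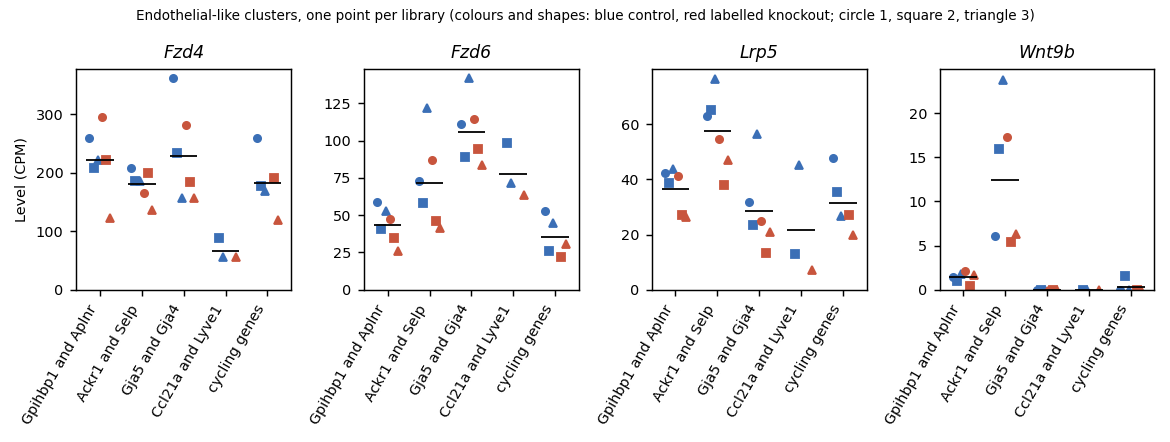
Each point is 1 library (blue control, red labelled knockout, shape for the replicate), the vertical axis is CPM, the bar is the mean, and the 5 columns of each panel are endothelial-like clusters named by their leading genes. Fzd6 was highest in the Gja5 and Gja4 cluster (106), Lrp5 and Wnt9b in the Ackr1 and Selp cluster (57.4 and 12.5), and Fzd4 was lowest in the Ccl21a and Lyve1 cluster (66.8).

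Fzd9 was highest in chondrocyte-like cells, whereas Fzd8 (24.2%) and Fzd7 (16.7%) led the Frizzled sum of hypertrophic chondrocyte-like cells. In chondrocyte-like cells Fzd9 measured 69.8, 64.2 and 148 in the controls and 77.7 and 114 in knockout-labelled libraries 1 and 3 (94.7 ± 35.6, n = 5). Its level there exceeded that of inflammatory fibroblast-like cells (32.0) in 5 of 5 libraries. Fzd9 in the latter class came mainly from a cluster led by Chil1 (55.7), which also carried the cartilage collagen gene Col2a1 at 27731. Its highest cluster was the chondrocyte-like one led by Ucma, at 116, followed by those led by Chrdl2 (96.1) and Epyc (84.9). Of chondrocyte-like cells, 71.8% had a Fzd9 UMI, against 0.972% of neutrophil-like cells, or 5.36% and 0.238% at 500 UMIs per cell.

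Fzd5, Fzd7 and Fzd8 were highest in the small marrow stromal-like class. Fzd5 measured 123 and 150 there in controls 2 and 3, and 65.4, 67.2 and 84.2 in control and 37.98, 29.4 and 30.6 in knockout-labelled osteoprogenitor-like cells (52.5 ± 22.8, n = 6). Fzd8 measured 104 and 59.9 in marrow stromal-like cells, against 61.8 in tendon-like and 59.3 ± 8.22 in periosteal-like cells. Fzd7 measured 32.4 and 59.9 in marrow stromal-like cells from 11 UMIs, and 33.8 ± 9.69 in chondrocyte-like cells. Fzd7 also split the mural cells, at 63.6 ± 24.9 in the cluster led by the smooth muscle gene Myh11 and 21.6 in the one led by the pericyte gene Rgs5. Fzd3 and Fzd10 stayed low, and Fzd10 had 40 UMIs in the cells of named classes.

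Lrp6 was the main LRP co-receptor of every stromal class. Progenitor fibroblast-like cells were highest, with 281, 268 and 121 CPM in the controls and 291, 221 and 172 in the knockout-labelled libraries (226 ± 67.8, n = 6), above tendon-like cells (183) in 3 of 3 libraries. Lrp6 reached 69.9 in macrophage-like and 15.1 in neutrophil-like cells. Lrp5 peaked in a different class. In endothelial-like cells it measured 45.1, 42.2 and 46.2, then 36.5, 26.3 and 25.6 (37.0 ± 9.18), above osteoblast-like cells (26.4) in 6 of 6 libraries, and made up 38.5% of LRP RNA there, 30.04% in osteoblast-like cells and 6.73% in chondrocyte-like cells.

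Ryk carried 65.8% to 97.7% of the ROR and RYK RNA in stromal classes. Hypertrophic chondrocyte-like cells measured 219 in control library 1 and 236, 292 and 236 in the knockout-labelled libraries (246 ± 32.1, n = 4), above osteoblast-like cells (195 ± 27.1) in 4 of 4. Ryk was 182 in inflammatory fibroblast-like cells, 61.3 ± 5.97 in endothelial-like cells and only 8.59 in macrophage-like and 4.63 in osteoclast-like cells. Stromal classes, and not bone and cartilage alone, thus stood above these blood-derived classes. A Ryk UMI was seen in 92.5% of hypertrophic chondrocyte-like cells (median depth 20254 UMIs) and 3.13% of neutrophil-like cells, or 11.9% and 0.411% at 500 UMIs per cell. The osteoblast-like cluster led by Ptprz1 and Dmp1 again stood above the Bglap cluster, at 261 against 156, as it did for Wnt5b and Lgr6. Ror1, a WNT5A receptor, measured 51.7, 51.0 and 15.2 in control and 61.0, 14.6 and 42.3 in knockout-labelled progenitor fibroblast-like cells (39.3 ± 19.8), and 31.4 ± 11.8 in pericyte and smooth muscle-like cells. Ror2, its relative with a known role in skeletal growth, measured 45.3 and 29.9 in marrow stromal-like cells from 10 UMIs, and 32.3 ± 9.89 in periosteal-like cells. Ryk overlaps the unnamed gene model Gm47427 on the same strand, so reads of the pair may not be told apart. The same holds for Rspo3 (Gm20276), Ror1 (Gm12701), Fzd3 (Gm27263) and Wnt2b (Gm43846).

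The study asked what loss of Piezo1 in chondrocytes does to the callus, and the genotype labels were compared class by class. No member passed the threshold in any fit (0 of 304 tests in 18 fits, edgeR quasi-likelihood test, Benjamini-Hochberg adjusted p under 0.05), where 1 of 209469 gene tests did. At an unadjusted p under 0.05 there were 35 member tests (11.5%) against 7565 gene tests (3.61%), and 1 member, Ryk in granulocyte-monocyte progenitor-like cells, passed by DESeq2, which called 1.55% of all genes in that class (141 of 9074). In simulated data of the osteoprogenitor-like class the test recovered 14.9% of genes changed 2-fold and 81.9% of those changed 4-fold, so changes of 2-fold were mostly not detectable. Of simulated 4-fold changes it recovered 81.6% in endothelial-like cells, 66% in periosteal-like cells and 21.1% over all stromal cells. It also called 2 to 14 unchanged genes per simulated fit. The changed genes were drawn from all genes tested, with 94 of each size in the osteoprogenitor-like fit. Adjustment for many tests is milder where more genes change, so these shares may be too high for the members. In the measured data the share called over all genes was 0.011% in granulocyte-monocyte progenitor-like cells and 0% in each of the other 17 fits. The differences below are therefore given as values that did not pass.

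In osteoprogenitor-like cells 18 members were tested. Of these, 8 (44.4%) were lower in every knockout-labelled library than in every control, where 7.69% of all genes were, and 1, Wnt4 (5.56%), was higher in every one, where 2.8% of all genes were. The median log2 fold change was -0.44 over the 18 and -0.01 over all genes tested. The 8 were 4 Frizzleds (Fzd1, Fzd3, Fzd5 and Fzd7), Wnt5a, its receptor Ror1, Lrp5 and Rspo3. Fzd1 measured 44.4, 48.3 and 103 CPM in the controls and 28.5, 24.0 and 21.9 in the knockout-labelled libraries, which is -1.36 on the log2 scale (SE 0.357, adjusted p = 0.793 by edgeR). Fzd5, with its values given above, had -1.10 (SE 0.245, adjusted p = 0.785 by edgeR), the lowest of the class. Fzd7 measured 24.9, 26.3 and 22.7, then 6.33, 10.0 and 11.4 (log2 fold change -1.16).

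Wnt5a measured 53.7, 72.5 and 62.8 in control and 50.6, 20.9 and 19.2 in knockout-labelled osteoprogenitor-like cells (-1.23), where library 1 lies just below the controls. Ror1 measured 13.2, 11.6 and 20.7, then 9.50, 5.70 and 6.85 (-1.12). The other 3 of the 8 had smaller differences, at -0.48 for Fzd3, -0.34 for Lrp5 and -0.30 for Rspo3. Wnt4 went the other way, at 0.86 on the log2 scale (SE 0.264, adjusted p = 0.793 by edgeR), from a mean of 154 in the controls to 264. Ryk (-0.15), Lrp6 (-0.12) and Wnt5b (0.01) overlapped between the labels.

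Knockout-labelled library 1 had 20 osteoprogenitor-like cells, the minimum, and without it 14 of the members were lower, where 25.1% of all genes were. Here and below, control library 1 stayed in when knockout-labelled library 1 was left out. Without knockout-labelled library 3, the female one, the count was 8 (44.4%), where 10.8% of all genes were lower. Marker genes of this and other classes differed between libraries too. The summed level of the 7 osteoprogenitor markers, none of them at 0, ran from 1152 to 2386 CPM in the controls and from 734 to 1104 in the knockout-labelled libraries, with 0 of the 7 separating the labels, and that of the 7 osteoclast markers ran from 666 to 2528 and from 1513 to 4714, with 1 of the 7 higher throughout. The 6 marrow stromal markers summed to 1126, 2040 and 1669 in the controls and 1114, 782 and 528 in the knockout-labelled libraries, so every knockout-labelled sum lay below every control, with 1 of the 6 lower throughout and none at 0. Of the 8 lower members, Fzd3, Fzd5, Fzd7 and Rspo3 had their highest level in marrow stromal-like cells. For Fzd3 this rested on 5 UMIs and held against osteoprogenitor-like cells in 1 of 2 libraries. Fzd8 and Ror2 were also highest in marrow stromal-like cells, but in osteoprogenitor-like cells they overlapped between the labels. The osteoprogenitor marker Limch1 measured 127, 555 and 436, then 18.99, 140 and 65.8, so its libraries overlapped. Their part in the differences was not tested.

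**Figure D5:**
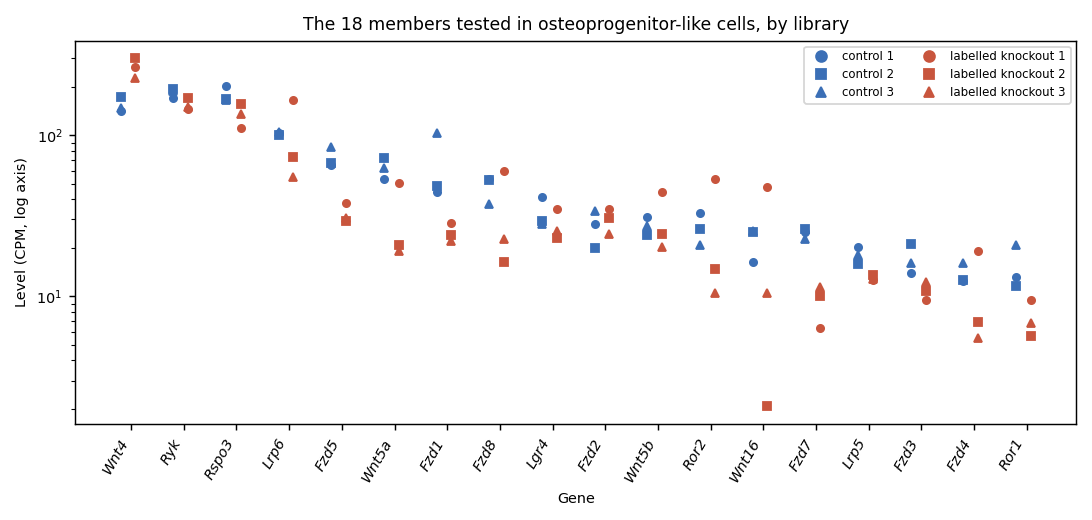
The 18 tested members are on the horizontal axis in order of level, CPM are on a log vertical axis, and each point is a library (blue control, red labelled knockout, shape for the replicate). The red points lie above the blue ones for Wnt4 and below them for Fzd1, Fzd3, Fzd5, Fzd7, Wnt5a, Ror1, Lrp5 and Rspo3, and none of these differences passed the threshold.

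Chondrocyte-like cells, the class in which the Cre is known to act, were compared between 3 controls and 2 knockout-labelled libraries, and 25 members were tested. Of these, 2 (8%) were higher in both knockout-labelled libraries, where 3.79% of all genes were, and 6 (24%) were lower, where 8.72% were. Wnt4 measured 22.0, 23.3 and 19.4 in the controls and 33.5 and 37.7 in knockout-labelled libraries 1 and 3 (log2 fold change 0.81, SE 0.249, adjusted p = 1.00 by edgeR), a level well under that of osteoprogenitor-like cells. Wnt11, whose values are given above, had 0.33. The lower members were Fzd1, Fzd2, Fzd6, Fzd8, Lgr5 and Ror2. Lgr5 had the largest difference, with 2.52, 3.41 and 7.39 in the controls and 0.259 and 1.21 in the knockout-labelled libraries (-2.29, SE 0.76), all under 20. Fzd8 measured 24.2, 25.2 and 46.8, then 22.0 and 11.7 (-0.85). The 8 periosteal markers summed to 1723, 1798 and 4794 in control and 1492 and 1279 in knockout-labelled chondrocyte-like cells, with 2 of 8 lower throughout and none at 0, and their part in the lower members was not tested. The count of 6 depended on how the class was drawn. Without integration it was 1 of 23 (Lgr6, 4.35% against 6.29% of all genes), at resolution 0.4 it was 4 (16% against 9.35%) and at resolution 1.2 it was 3 (12% against 8.78%). Leaving out either knockout-labelled library leaves 1 of them. The count was then 14 without library 1 (56% against 40.2% of all genes). Without library 3, the female one, it was 6, the same share as all genes (24% against 24%). The leading cartilage genes of the family overlapped between the labels: Fzd9 (0.15), Lgr4 (-0.33), Lgr6 (0.13), Wnt5b (0.67) and Ryk (0.19).

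Wnt4 had a log2 fold change above 0 in 9 of the 11 single classes where it was tested, and these classes share the same 6 libraries. Outside the classes above its libraries overlapped. In cycling stromal cells Wnt4 measured 46.8, 29.4 and 16.8, then 39.9, 146 and 94.1 (1.65). In pericyte and smooth muscle-like cells it measured 9.30, 9.22 and 17.4, then 5.67, 69.0 and 31.5 (1.54), and Rspo3 measured 6.34, 0.857 and 1.64, then 3.4, 32.9 and 47.7 (3.56). Knockout-labelled libraries 2 and 3 were high in each of these, and library 1 was not. In the pericyte and smooth muscle-like cells the 7 osteoprogenitor markers summed to 379, 36.4 and 87.4, then 237, 173 and 122, with 0 of 7 separating the labels, and their part in the Wnt4 and Rspo3 levels was not tested. Over all stromal cells Wnt4 measured 35.9, 25.5 and 22.9, then 26.1, 101 and 57.4 (1.29), a sum in which more cells of a class and more RNA per cell cannot be told apart.

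Of the Frizzled tests in single classes, 68 of 89 had a log2 fold change under 0. These tests repeat at most 10 genes over the same libraries, so they are not separate observations. The share of all genes under 0 was not counted. The median log2 fold change over all genes ran from -0.0140 in osteoblast-like to 0.0330 in T and NK-like cells. Fzd8 was the member that separated most often. Over all stromal cells it measured 40.0, 44.8 and 40.1 in the controls and 35.8, 18.8 and 23.7 in the knockout-labelled libraries (-0.60, SE 0.232), 1 of 32 members (3.12%) that were lower where 2.85% of all genes were, and 0 were higher where 1.26% of all genes were. In pericyte and smooth muscle-like cells it measured 32.6, 25.5 and 39.4, then 24.9, 13.1 and 13.5 (-0.91), 1 of 17 (5.88% against 5.06% of all genes), with 0 higher against 4.43%. In progenitor fibroblast-like cells it had -0.43 (5.26% of 19 members against 2.85%), with 0 higher against 2.83%. These shares are near those of all genes. The counts depended on knockout-labelled library 1, without which 14 of 32 members (43.8% against 24.8% of all genes) were lower over all stromal cells, 8 of 17 (47.1% against 24%) in pericyte and smooth muscle-like cells and 4 of 19 (21.1% against 13.1%) in progenitor fibroblast-like cells.

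In endothelial-like cells Fzd5, Fzd8 and Lrp5 were lower in every knockout-labelled library, 3 of 21 (14.3%) where 6.31% of all genes were, and 0 were higher against 4.88%. Fzd5 measured 12.04, 12.3 and 9.001, then 8.89, 4.31 and 5.99 (-0.81), Fzd8 had -0.69 and Lrp5 had -0.56, with its values given above. The leading vessel receptor Fzd4 overlapped between the labels. In cycling stromal cells Fzd9 measured 16.4, 28.2 and 31.4, then 6.29, 3.91 and 12.6 (-1.74, SE 0.5), 1 of 24 members (4.17% against 3.32% of all genes), and Rspo3 was the 1 that was higher (3.71% of all genes). The 14 chondrocyte markers of the same cells summed to 9086 to 50340 CPM in the controls and 1053 to 11780 in the knockout-labelled libraries, with 3 of 14 lower throughout and none at 0, and their part in the Fzd9 level was not tested. In osteoblast-like cells Wnt5a measured 41.8, 52.6 and 48.7, then 41.7, 16.9 and 24.9 (-0.81), and with Fzd5 (-0.79) made 2 of 19 (10.5% against 5.37%), with 0 higher against 4.74%. In periosteal-like cells Wnt5b was higher, at 21.1, 15.1 and 17.4, then 24.5, 30.7 and 26.3 (0.61, SE 0.212), 1 of 27 (3.7% against 2.54%), and Fzd8 was the 1 that was lower (-0.27, where 2.66% of all genes were).

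Knockout-labelled library 1 moved these counts as well. Without it, 8 members were lower in endothelial-like cells (38.1% against 21.9% of all genes) and 11 in cycling stromal cells (45.8% against 19.8%). The count was 9 in osteoblast-like cells (47.4% against 21.8%) and 6 in periosteal-like cells (22.2% against 16.5%). Control library 1, which stayed in, resembles the library left out in Cell Ranger version and in stromal cells without a clear name (56.7% and 59.4%). Counts without replicate 1 of both labels were not made, so label and replicate number cannot be told apart here.

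In the remaining fits 1 or 2 members, or none, separated the labels. Fzd7 had -0.63 in inflammatory fibroblast-like cells (4% of 25 members against 1.95% of all genes, with 0 higher against 2.06%), Fzd4 had -0.83 in macrophage-like cells (7.14% of 14 against 2.39%, with 0 higher against 2.34%) at levels of 2.45 to 5.83 CPM, Lrp6 had -0.66 in dendritic-like cells (1 of 2, where 23.1% of all genes were lower and 16.7% higher), and Fzd6 had -0.81 over all kept cells, where 2 of 33 members (6.06% against 3.87%) were lower and 0 were higher (0.683% of all genes). No member separated the labels in monocyte-like cells (3.62% of all genes were higher and 3.25% lower), neutrophil-like cells (3.24% and 5.88%), osteoclast-like cells (2.73% and 5.26%) or T and NK-like cells (4.68% and 6.91%). Without knockout-labelled library 1 the lower members were 11 over all kept cells (33.3% against 22.8% of all genes), 7 in inflammatory fibroblast-like cells (28% against 19.8%), 4 in macrophage-like cells (28.6% against 18.7%) and 3 each in monocyte-like (50% against 14.4%) and osteoclast-like cells (37.5% against 31%). The share was below that of all genes in neutrophil-like cells (1 of 8, 12.5% against 27.3%) and T and NK-like cells (0 of 2, 0% against 21.9%). The hypertrophic chondrocyte-like, tendon-like, marrow stromal-like, B lineage-like and erythroid-like classes lacked 2 libraries per label with 20 cells and were not fitted.

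Ryk in granulocyte-monocyte progenitor-like cells came nearest to the threshold. It measured 1.48 and 1.87 CPM in control libraries 2 and 3 and 32.9 and 13.7 in knockout-labelled libraries 2 and 3 (log2 fold change 3.98, SE 0.688, adjusted p = 0.106 by edgeR), 1 of 4 members (25%) that were higher where 15.4% of all genes were, with 0 lower against 31.6%. A Ryk UMI was seen in 3 of 110 and 2 of 114 control cells and in 22 of 98 and 11 of 88 knockout-labelled cells. By DESeq2 its adjusted p was 0.00564, and over all alternatives it ranged from 1.27e-07 to 0.709. These blood progenitors carried far less Ryk than stromal cells. The 8 stromal markers summed to 536 and 1305 CPM in these control cells and 36362 and 2296 in the knockout-labelled ones, with 4 of 8 higher in both and none at 0, and 9 of 10 osteoblast markers were higher in both. Their part in the Ryk level was not tested.

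The other genes of the pathway were taken from a list of 32 that handle WNT secretion, beta-catenin, nuclear factors, receptor turnover and planar polarity. Over all stromal cells 30 of the 32 were tested, 0 passed by edgeR in either direction (0 of 406 tests over all fits, 15 of them at an unadjusted p under 0.05), and 1 of 30, the feedback inhibitor Nkd1, was lower in every knockout-labelled library (log2 fold change -0.49), where 2.85% of all genes were. Ctnnb1, which encodes beta-catenin, measured 353 ± 57.1 CPM (n = 6, log2 fold change 0.19), and Wls, the carrier of WNT proteins to the cell surface, 178 ± 45.0 (-0.25). Tcf7l2, a nuclear partner of beta-catenin, measured 108 ± 44.7 (0.18), Ptk7, a co-receptor of the polarity branch, 36.1 ± 17.0 (-0.54) and Nkd2, a feedback inhibitor, 20.4 ± 5.44 (-0.36). All 5 overlapped between the labels. Single classes differed in how many pathway genes were lower in every knockout-labelled library. The count was 5 of 29 in chondrocyte-like cells (8.72% of all genes), 4 of 25 in osteoblast-like (5.37%) and 3 of 28 in cycling stromal cells (3.32%). It was 2 of 27 in osteoprogenitor-like (7.69%) and 0 of 28 in periosteal-like cells (2.66%). Higher throughout were 1 in cycling stromal cells (3.71% of all genes) and 0 in the other classes named here (2.54% to 4.74%).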

How the data were processed

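Single-cell 3′ RNA of mouse fracture callus was measured in 6 libraries. The authors counted UMIs per gene and barcode with Cell Ranger (6.1.1 for replicate 1, 6.1.2 for replicates 2 and 3, per the file headers) on GRCm38 per the labels and deposited these raw counts. The files of replicate 3 list 55357 genes and the others 55450, and the 52081 shared identifiers were used. Gene positions are from GENCODE M21.

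Cells with at least 500 UMIs and 200 genes and at most 20% mitochondrial UMIs were kept. Doublets were scored with Scrublet, and the top 0.8% of each library per 1000 cells was removed (3074 cells). Libraries were integrated with Seurat 5.3.0 on 2000 variable genes, chosen with scanpy 1.11.5, that excluded the members and pathway genes. Cells were clustered with leidenalg 0.10.2 (20 neighbours, resolution 0.8), and both steps were run at each of 2 levels. Clusters were named by markers, and clusters of stromal cells with no clear name (10.4% to 59.4% of stromal cells per library, highest in replicate 1 of both labels) entered the sum of all stromal cells but no single stromal class. UMIs were summed per library and class with at least 20 cells, and genotype labels were compared with edgeR 4.0.16 (filterByExpr, TMM, quasi-likelihood test, Benjamini-Hochberg adjustment over all genes of a fit, threshold 0.05), which was tested on simulated data. DESeq2 1.42.0, other scalings and filters, a replicate block, other clusterings and left-out libraries were alternatives.

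The 41 genes, the gene lists, the markers and the tests were chosen with earlier results of these data known. Values in every library are given for each member that reached 20 CPM in a class, in that class, and between labels for the member with the largest log2 fold change among those whose libraries do not overlap in each fitted class. Members of osteoprogenitor-like and chondrocyte-like cells beyond that, Wnt4 and Rspo3 in further classes, and the clusters within classes were named after their values were seen. Of the pathway genes, 1 per role was named, the highest in stromal cells. Replicate numbers were not taken as pairs, because in no class with all libraries did each library's deviations correlate best with those of its own number. The 3 same-numbered correlations were all positive in some classes, such as osteoblast-like cells (0.432, 0.146 and 0.0675). They had mixed signs in others, such as all stromal cells (0.258, -0.101 and -0.166). For replicate 1 alone the correlation ran from -0.0352 in inflammatory fibroblast-like cells, its only negative value, to 0.447 over all kept cells. Intervals are not given for sums of cells, and shares of cells cover counting error only.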

Additional observations from a re-analysis of the deposited data

Results flagged for a closer look

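Rspo3 had opposite signs in a pair of classes that share the same libraries. In cycling stromal cells it measured 63.2, 54.2 and 44.2 CPM in the controls and 73.9, 81.1 and 96.4 in the knockout-labelled libraries, a log2 fold change of 0.64, whereas in osteoprogenitor-like cells every knockout-labelled library was below every control, at -0.30. It was taken up here because all libraries of a label moved one way in one class and the opposite way in the other. The difference between the fold changes was 0.94 on the log2 scale and was not tested, and neither fold change passed the threshold.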

How the results depend on the processing

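Over the 18 fits 1 gene and 0 members passed with edgeR, TMM scaling and the filter on low counts. DESeq2 called 202 genes and 1 member (Ryk in granulocyte-monocyte progenitor-like cells, 1 there), library totals without TMM 29 genes, a stricter cell filter 24, clustering without integration 9 (17 fits), and leaving out replicate 3 of both labels 0 (15 fits), with 0 members in the last 4. Without the filter on low counts 1827 genes and 9 members passed. In granulocyte-monocyte progenitor-like cells these were 3 of 27 members (Ryk, Wnt4 and Wnt5b), against 735 of 19429 genes. Cycling stromal cells had 2 of 36 (Wnt4 and Fzd9), against 257 of 24015 genes. Pericyte and smooth muscle-like cells had 2 of 33 (Wnt4 and Rspo3), against 107 of 23914. Osteoprogenitor-like cells had 1 of 33 (Fzd1), against 90 of 23203, and periosteal-like cells 1 of 35 (Rspo3), against 56 of 26442. The cause was not tested. Leaving out 1 library at a time gave 3 to 1046 genes and 0 to 2 members. The highest counts came without knockout-labelled library 3, where 738 of the 1046 genes and both members (Ryk and Wnt4) lay in granulocyte-monocyte progenitor-like cells, which then had 1 knockout-labelled library with enough cells, assumed to vary like the controls.

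With the replicate number as a block, 13 genes and 0 members passed. The labels do not say what a number stands for, although replicate 3 of both labels lists 55357 genes. Replicate 1 of both was counted with Cell Ranger 6.1.1 and had the lowest medians over all barcodes (2554 and 2728.5 UMIs). Depth within a class could go the other way. Chondrocyte-like cells had medians of 44672, 17344 and 8484 UMIs in the controls and 47626 and 21053 in knockout-labelled libraries 1 and 3. In osteoclast-like cells knockout-labelled library 1 had the lowest, 3268.5. The numbers were not taken as pairs: their deviations correlated at 0.447, 0.257 and -0.0433 over all kept cells, and in no class did each library correlate best with its own number.

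The counts of members lower in every knockout-labelled library were repeated with alternatives chosen after seeing the data. In osteoprogenitor-like cells the 8 became 8 to 14 when 1 library was left out, where 10.8% to 25.1% of all genes were lower. The count was 14 with the stricter cell filter (24.6% of all genes), 13 without integration (28.6%), 4 at resolution 0.4 (6.62%) and 13 at resolution 1.2 (25.6%). The stricter filter, no integration and resolution 1.2 left only 2 knockout-labelled libraries over the cell minimum. For the other fits the share of all genes that were lower is given in brackets. The ends of a range of counts and of its range of shares need not come from the same run. Leaving out 1 library gave 6 to 14 in chondrocyte-like cells (13% to 40.2%), 1 to 14 over all stromal cells (5.25% to 24.8%) and 2 to 11 over all kept cells (6.06% to 22.8%). It gave 1 to 11 in cycling (4.62% to 19.8%), 2 to 9 in osteoblast-like (7.35% to 21.8%) and 3 to 8 in endothelial-like cells (8.36% to 21.9%). It gave 1 to 8 in pericyte and smooth muscle-like (7.58% to 24%), 1 to 7 in inflammatory fibroblast-like (3.25% to 19.8%) and 1 to 6 in periosteal-like cells (5% to 16.5%). The count was 1 to 4 in macrophage-like (4.01% to 18.7%) and progenitor fibroblast-like (5.01% to 13.1%) and 1 to 2 in dendritic-like cells (35.3% to 45.2%). The range was 0 to 3 in monocyte-like (5.07% to 14.4%) and osteoclast-like cells (7.73% to 31%). It was 0 to 1 in neutrophil-like (7.52% to 27.3%), T and NK-like (9.67% to 21.9%) and granulocyte-monocyte progenitor-like cells (39.6% to 51.4%). Without integration the count was 1 in chondrocyte-like (6.29%), 2 over all stromal (4.22%) and 2 in progenitor fibroblast-like cells (9.34%). It was 1 in granulocyte-monocyte progenitor-like (33.2%) and 0 in periosteal-like cells (2.92%). At resolution 0.4 it was 2 in cycling (2.5%), 1 in osteoblast-like (4.96%) and 0 in periosteal-like (2.68%) and progenitor fibroblast-like cells (2.79%). At resolution 1.2 it was 2 over all stromal (2.64%), 3 in chondrocyte-like (8.78%), 2 in cycling (2.55%) and 0 in periosteal-like cells (2.54%). With doublets kept it was 2 in pericyte and smooth muscle-like (4.6%) and 1 in granulocyte-monocyte progenitor-like cells (34.2%). The cause was not tested.

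Of 367 alternative log2 fold changes of 22 results, 360 kept their sign and their side of the threshold and 7 kept the sign and passed it. These 22 results were picked because their libraries did not overlap or their unadjusted p by edgeR was under 0.05. Leaving out a library cannot undo a separation, so keeping the sign was largely set by that choice. Of 233 alternative levels of 24 members, 232 moved by less than 1 SD, and Wnt16 in tendon-like cells fell to 16.7 CPM without integration. Leaving out 1 library cannot move a mean by 1 SD of the same libraries, so those levels could not count as moved. The marrow stromal-like class was not found without integration or at resolution 0.4, so its 6 levels have no value there. The test recovered from 0% (all stromal cells) to 14.9% (osteoprogenitor-like cells) of simulated 2-fold changes in the 4 fits simulated. For 4-fold changes the range was from 21.1% to 81.9% in the same 2 fits.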
